A study of Mus musculus with 12 samples.

Results

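The Gadd45 family holds Gadd45a, Gadd45b and Gadd45g, small acidic proteins that cells make under stress. Its members were chosen by name from the annotation of an Affymetrix array, keeping probe sets that name exactly 1 gene. Where a gene had several, the probe set was to be selected on its mean level over 12 arrays; that mean was the measured value the rule used, and it decided nothing, since neither measured member had more than 1. That rule left 2 of the 3 genes, among 22180 genes in all: Gadd45b (probe set 17235511) and Gadd45g (probe set 17287361), with 1 such probe set each. Gadd45a has no probe set naming it alone, only 1 that names it with another gene, and was not analysed here. The RNA came from livers of male mice aged 2 months, all homozygous for floxed p53 (allele Trp53tm1Brn, strain C57Bl/6N), so that controls carried the floxed alleles too. A virus was given through the tail vein: Adeno-Cre carries Cre recombinase, the enzyme that cuts floxed p53 out of infected cells, and Adeno-GFP, at the same titer, carries a fluorescent protein. The mice were put on their diets 3 days after the injection, either 24 h without food or free access to chow. The groups were Adeno-Cre fasted, Adeno-GFP fasted, Adeno-Cre fed and Adeno-GFP fed, with 3 arrays each. The labels name no promoter that would limit Cre to 1 cell type, and no uninjected mice were analysed here, so all values stand against a second virus.

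Gadd45 proteins have no known enzyme activity and act by binding others. They bind the replication clamp PCNA, the cell cycle inhibitor p21 (Cdkn1a) and the mitotic kinase Cdk1, and they bind and activate the kinase MTK1 (Map3k4), which starts the p38 and JNK stress cascades. They have also been linked to active DNA demethylation through excision repair. Gadd45a is a classical p53 target, Gadd45b responds to NF-kB, TGF-beta and, in mouse liver, to activators of the nuclear receptor CAR (Nr1i3), and Gadd45g responds to cytokines and other signals of growth and differentiation.

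Both measured genes are short, spanning 2114 bases for Gadd45b on chromosome 10 (80930091 to 80932204) and 1801 bases for Gadd45g on chromosome 13 (51846675 to 51848475) in GRCm38.p6. Their promoters are shown because both genes were higher in fasted than in fed livers when the injections were averaged. The windows are chr10:80929841-80930140 and chr13:51846425-51846724, both on the plus strand, from 250 bases before to 50 bases after the RefSeq start. They were matched by gene identifier and are printed 5′ to 3′ from RefSeq's GRCm38.p6 annotation, with the CCAAT, TATA, E-box and octamer core motifs in capitals.
Gadd45b: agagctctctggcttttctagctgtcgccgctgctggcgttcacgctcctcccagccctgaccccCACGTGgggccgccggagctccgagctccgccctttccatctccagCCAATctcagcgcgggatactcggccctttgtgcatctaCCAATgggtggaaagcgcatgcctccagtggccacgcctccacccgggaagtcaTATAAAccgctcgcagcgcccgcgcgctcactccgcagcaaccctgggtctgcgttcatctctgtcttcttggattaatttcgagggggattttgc
Gadd45g: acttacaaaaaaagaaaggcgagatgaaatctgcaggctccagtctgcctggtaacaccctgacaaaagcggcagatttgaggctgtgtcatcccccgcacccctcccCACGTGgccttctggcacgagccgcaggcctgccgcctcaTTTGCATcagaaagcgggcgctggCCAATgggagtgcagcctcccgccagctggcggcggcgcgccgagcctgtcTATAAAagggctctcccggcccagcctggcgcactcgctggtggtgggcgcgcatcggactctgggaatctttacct
Both windows hold a TATAAA on the printed strand, which 13.6% of 32851 mouse promoter windows of the same length hold on either strand. It begins 46 bases before the start in Gadd45b and 27 bases before it in Gadd45g. Both hold the E-box CACGTG (7.15% of all windows) and CCAAT (37.4%), which occurs 2 times in Gadd45b and 1 time in Gadd45g. The octamer core TTTGCAT was found only in Gadd45g among these 2 windows (4.63% of all windows), and the GC box GGGCGG, read on the opposite strand and left in lower case, only in Gadd45b (35.7%). On either strand neither window holds TGACGT of the cyclic AMP element (7.51%), TGANTCA of AP-1 (7.81%), GTAAACA of FOXO (3.65%), TTCNNNGAA of STAT (8.30%) or the p53 decamer motif (8.36%). These matches describe letters in a window. No binding was measured.

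The arrays were alike in their overall distribution, with medians of 6.26 to 6.33 on the log2 scale and correlations of at least 0.991 within groups. The tissue was liver by its markers, since albumin (Alb) averaged 13.27 to 13.30 in every group. Trp53 has no probe set naming it alone, so the deletion could not be checked on the gene itself. The p53 target Ccng1 (cyclin G1) was lower by Adeno-Cre in both diets (log2 -0.50 in fasted and -0.58 in fed livers, limma adjusted p = 0.00986 and 0.0135; without Adeno-GFP fed replicate 1 the call in fed livers ended, adjusted p = 0.0604). Cyp4a14, a fatty acid hydroxylase that fasting induces, rose in fasted livers after each virus (log2 2.07 after Adeno-Cre and 1.77 after Adeno-GFP). Nothing says how mice were housed or processed in batches, and the p-values rest on the spread among these arrays alone. In whole liver, a lower level in each cell and fewer cells that express a gene cannot be told apart.

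Both Gadd45 genes lay near the middle of the array's range. Averaged over 12 arrays, Gadd45g stood at 6.53 and Gadd45b at 6.24 on the log2 scale, the 50.5th and the 43rd percentile of 22180 genes, whose median was 6.51. The files give no detection calls, so levels near or under this median are not shown to lie above background, and changes against them may be compressed.

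Gadd45g was high in a single group, the fasted livers with Adeno-GFP. Its log2 level was 6.62, 6.46 and 6.44 in Adeno-Cre fasted livers, against 7.57, 7.26 and 7.73 in Adeno-GFP fasted livers. In fed livers it was 6.22, 5.97 and 6.10 with Adeno-Cre, against 5.88, 6.13 and 5.97 with Adeno-GFP. All 3 Adeno-GFP fasted arrays lay above the other 9 arrays, and the fed groups overlapped. In percentiles of all genes it stood at 47.5 to 53.1 in Adeno-Cre fasted and 66.1 to 73.4 in Adeno-GFP fasted livers, and at 33.4 to 43.1 over the 6 fed livers.

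**Figure D1:**
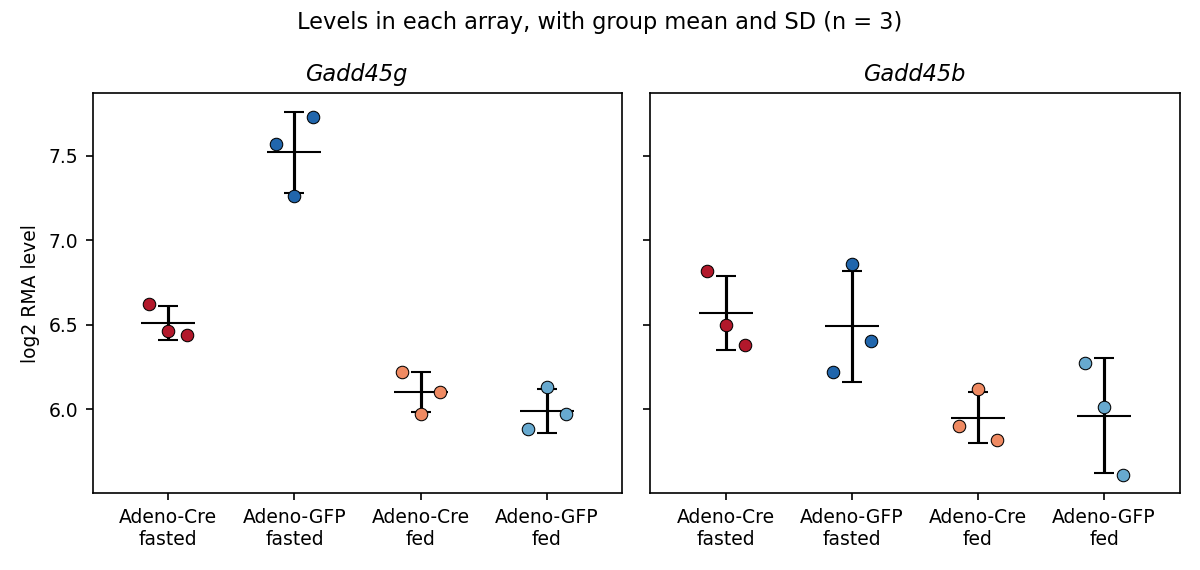
Log2 RMA level (vertical axis) of Gadd45g (left) and Gadd45b (right) in each of 12 arrays by group, with the group mean as a horizontal bar and the SD as whiskers (n = 3 each). The 3 Adeno-GFP fasted arrays of Gadd45g sit between 7.26 and 7.73, above every other array, while for Gadd45b both fasted groups overlap each other.

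With fasting, Gadd45g rose after Adeno-GFP. It averaged 7.52 ± 0.24 (SD, n = 3) in Adeno-GFP fasted and 5.99 ± 0.13 in Adeno-GFP fed livers, a 2.88-fold difference (log2 1.53, SE 0.12, 95% interval 1.27 to 1.79, limma adjusted p = 4.79e-05). This was the 9th largest of the 267 rises called in that comparison, where 1.2% of genes were called higher, 1.87% lower and 3.07% in either direction. All 3 fasted arrays lay above the fed ones, and groups did not overlap for 22.2% of all genes. After Adeno-Cre it averaged 6.51 ± 0.10 in fasted and 6.10 ± 0.12 in fed livers, a 1.33-fold difference (log2 0.41, SE 0.12, interval 0.15 to 0.67). Here the arrays did not overlap, as for 21.1% of all genes, but the limma adjusted p was 0.0964, in a comparison where 2.67% of genes were called (1.5% higher and 1.17% lower). With genes under the median level left out it passed (adjusted p = 0.0436).

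Gadd45g was lower with Adeno-Cre in fasted livers. The level there was 2.01-fold lower than with Adeno-GFP (log2 -1.01, SE 0.12, 95% interval -1.27 to -0.75, limma adjusted p = 0.000761). Only 0.482% of genes were called lower in this comparison and 2.75% in either direction, and Gadd45g had the 3rd largest of these 107 falls. The groups did not overlap, as for 20.9% of all genes. The call held without each array in turn (log2 -1.14 to -0.91). The family was taken up with this fall already known, so its p and rank are no independent support for it. In fed livers the difference was 0.10 (SE 0.12, interval -0.16 to 0.36, adjusted p = 0.81, with 1.49% of genes called), and the arrays overlapped (those of 19.9% of all genes did not).

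Averaged over diets, Gadd45g fell by 0.45 with Adeno-Cre (SE 0.08, limma adjusted p = 0.00734, with 2.03% of genes called lower, 3.55% higher and 5.59% in either direction). That average joins a fall in fasted livers and a difference of the opposite sign in fed ones. Averaged over injections, it rose with fasting by 0.97 (SE 0.08, adjusted p = 6.58e-05), 1.96-fold, and all 6 fasted arrays lay above all 6 fed arrays, a separation, in either direction, that 3.96% of genes had. In this comparison 4.02% of genes were called higher, 4.32% lower and 8.34% in either direction.

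The difference between the 2 fasting responses was tested as the interaction of injection and diet. For Gadd45g the fasting change after Adeno-Cre minus that after Adeno-GFP was -1.11 (SE 0.17, 95% interval -1.48 to -0.75), which did not pass after adjustment over all genes (limma adjusted p = 0.238). It had the 2nd smallest unadjusted p of 22180 genes, after Slc44a3, the 1 gene called (0.00451% of all). An unadjusted p under 0.05 was found for 1676 genes, against 1109 expected if none changed. The interaction contains the fall in fasted livers that was known when the family was taken up. Its p and rank are therefore no independent support either. Without 1 array at a time its value ran from -1.24 to -1.01 and its adjusted p from 0.0793 to 0.434.

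Gadd45b was not called between the viruses in either diet, where 2.75% of genes were called in fasted and 1.49% in fed livers. Its log2 level was 6.82, 6.50 and 6.38 in Adeno-Cre fasted livers, against 6.22, 6.86 and 6.40 in Adeno-GFP fasted livers. In fed livers it was 5.90, 6.12 and 5.82 with Adeno-Cre, against 6.27, 6.01 and 5.61 with Adeno-GFP. In each diet the arrays of the viruses overlapped. The Adeno-Cre difference was 0.08 in fasted livers (SE 0.19, 95% interval -0.34 to 0.49, limma adjusted p = 0.878) and -0.02 in fed livers (SE 0.19, interval -0.43 to 0.40, adjusted p = 0.985). These intervals do not reach the -1.01 seen for Gadd45g, but they leave room for changes of about 0.4 in either direction, and the sign turned when single arrays were left out.

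With fasting, Gadd45b rose when the injections were averaged and was not called after either virus alone. It averaged 6.57 ± 0.22 in Adeno-Cre fasted and 5.95 ± 0.15 in Adeno-Cre fed livers (SD, n = 3; log2 0.62, SE 0.19, limma adjusted p = 0.119), with no overlap between the arrays, as for 21.1% of all genes. It averaged 6.49 ± 0.33 in Adeno-GFP fasted and 5.96 ± 0.34 in Adeno-GFP fed livers (log2 0.53, SE 0.19, limma adjusted p = 0.175), where the arrays overlapped. Averaged over injections it was 1.49-fold higher in fasted livers (log2 0.57, SE 0.13, 95% interval 0.28 to 0.87, adjusted p = 0.0215). That call ended without Adeno-Cre fasted replicate 1 (log2 0.51, adjusted p = 0.054), without Adeno-Cre fed replicate 3 (0.54, adjusted p = 0.0524), or when all probe sets were tested (0.57, adjusted p = 0.0501). Its interaction was 0.09 (SE 0.27, interval -0.49 to 0.67, adjusted p = 0.958).

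**Figure D2:**
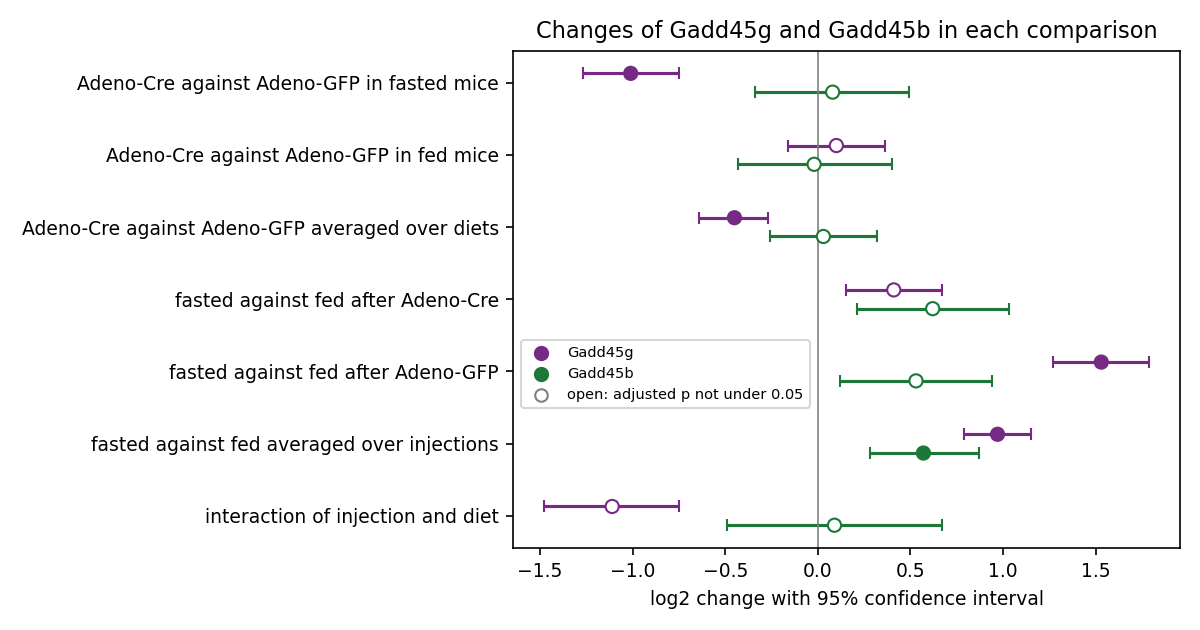
Log2 change (horizontal axis) of Gadd45g and Gadd45b in each of 7 comparisons, with 95% confidence intervals from limma; filled points passed an adjusted p of 0.05 and open points did not. Gadd45g lies at -1.01 for Adeno-Cre in fasted livers and at 1.53 for fasting after Adeno-GFP, while Gadd45b is filled only for fasting averaged over injections, at 0.57.

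The spread between arrays of a group was larger for Gadd45b than for Gadd45g, with pooled SDs of 0.27 and 0.16. Over the 12 arrays the levels of both genes correlated with Pearson's r = 0.526 and Spearman's rho = 0.615 (r = 0.353 without the 2 arrays farthest from the Gadd45b median). With group means removed r was -0.396. The arrays fall into 4 groups, so these are descriptions and no relation between the genes was tested. By group mean, Gadd45g ran from Adeno-GFP fasted down through Adeno-Cre fasted and Adeno-Cre fed to Adeno-GFP fed livers, and the last pair did not differ beyond its spread. For Gadd45b the order was Adeno-Cre fasted, Adeno-GFP fasted, Adeno-GFP fed and Adeno-Cre fed, and within each diet the neighbours did not differ beyond their spread.

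Other genes that fasting induces in liver were called after both viruses. Of 25 measured genes of a list of them, 9 rose and 0 fell after Adeno-Cre, against 11 and 0 after Adeno-GFP, where 1.5% and 1.2% of all genes were called higher, with medians of 0.38 in each (0.00 and 0.01 over all genes). These counts came down to 2 to 4 when any 1 array of the Adeno-Cre groups but fasted replicate 3 was left out, and to 5 to 7 without any 1 of the Adeno-GFP arrays. Averaged over injections 13 rose, where 4.02% of all genes were called higher, and 12 to 15 without 1 array. Ehhadh, a peroxisomal enzyme of fatty acid oxidation, rose by 1.19 after Adeno-Cre and 1.16 after Adeno-GFP (limma adjusted p = 0.0069 and 0.0068). For the list the interaction had a median of -0.06, and 0 of 25 genes passed it by limma or had an unadjusted p under 0.05. Of all 22180 genes 1 (0.00451%) passed it, and 1676 had an unadjusted p under 0.05. The smallest p of the list belonged to Acadm, a mitochondrial dehydrogenase of fatty acid oxidation, at -0.18 (adjusted p = 0.737), and the next to Vnn1 at -0.49 (adjusted p = 0.744).

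**Figure D3:**
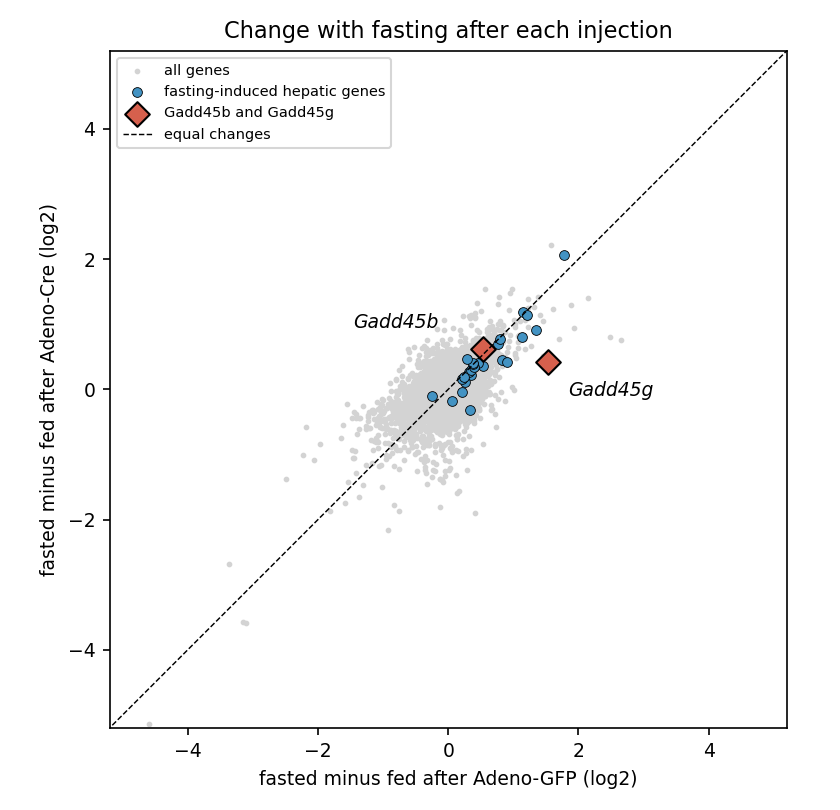
Change with fasting after Adeno-Cre (vertical axis) against the change after Adeno-GFP (horizontal axis), both fasted minus fed in log2, for 22180 genes, with 25 fasting-induced hepatic genes and both Gadd45 genes marked and a dashed line where the changes are equal. Gadd45b lies close to the line (0.62 and 0.53) and Gadd45g well below it (0.41 and 1.53).

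Next came a list of cell cycle genes that holds reported partners of Gadd45 proteins among others. Of 13 measured genes of this list, 8 rose and 0 fell with Adeno-Cre in fasted livers, where 2.26% of all genes were called higher. The list median was 0.60, against -0.03 over all genes. Cdk1, the mitotic kinase that Gadd45 proteins bind, rose by 2.26 (limma adjusted p = 0.000325). Ccna2 (cyclin A2) rose by 1.80, Aurka, a mitotic kinase that Gadd45a binds, by 1.43, and Pcna, the replication clamp, by 0.64 (adjusted p = 0.00204). In fed livers 4 rose and 0 fell, where 1.08% of all genes were called higher (median 0.16, against -0.02), and the count ran from 0 without Adeno-GFP fed replicate 3 to 5, with 2 without Adeno-Cre fed replicates 1 or 3 or Adeno-GFP fed replicate 1. Pcna was at 0.10 there (adjusted p = 0.738). Cdkn1a, which encodes p21, was at -0.45 in fasted and -0.68 in fed livers (adjusted p = 0.536 and 0.445), and Gadd45gip1, a mitochondrial and nuclear partner named for Gadd45, at 0.14 and -0.12 (adjusted p = 0.516 and 0.711).

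With fasting, averaged over injections, 1 of 13 genes of this list fell and 0 rose (median -0.13, against 0.01 over all genes, where 4.32% were called lower): Cdk1, with a change of -0.62 (limma adjusted p = 0.0265), a call that ended without any 1 of 7 arrays. After Adeno-Cre, where 2.67% of all genes were called, 0 of 13 passed by limma. There 2 had an unadjusted p under 0.05, and the median was 0.02. After Adeno-GFP, where 1.87% of all genes were called lower, 2 fell, with 7 at an unadjusted p under 0.05 and a median of -0.29. These were Cdk1 (-1.03, adjusted p = 0.0254) and Ccne1 (-0.45, adjusted p = 0.0455, ended without any 1 of 10 arrays); without Adeno-GFP fasted replicates 2 or 3 or fed replicate 2 neither was called, and Cdk1 also missed without Adeno-GFP fed replicate 1. In the Adeno-GFP fasted group, where Gadd45g was highest, Cdk1 averaged 6.95 ± 0.48, against 7.97 ± 0.30 in Adeno-GFP fed livers.

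Among 21 measured genes of the MTK1, p38 and JNK cascade, Adeno-Cre gave a call in fed but not in fasted livers. In fasted livers 0 passed by limma (2 at an unadjusted p under 0.05), where 2.75% of all genes were called. In fed livers 1 fell, where 0.415% of all genes were called lower, and 8 had an unadjusted p under 0.05. Medians were -0.04 and -0.02, against -0.03 and -0.02 over all genes. Averaged over diets 2 fell, where 2.03% of all genes were called lower. The second was Mapkapk3, a kinase downstream of p38 (-0.26, limma adjusted p = 0.0378, ended without any 1 of 8 arrays). The gene called in fed livers was Map2k6, which phosphorylates p38. It averaged 7.13 ± 0.22 in Adeno-Cre fed and 8.39 ± 0.14 in Adeno-GFP fed livers (SD, n = 3; log2 -1.26, SE 0.16, limma adjusted p = 0.00706) and kept its call without each array in turn. In fasted livers it was at -0.36 (adjusted p = 0.278). Map2k6 rose with fasting after Adeno-Cre by 1.13 (adjusted p = 0.00402) and was at 0.23 after Adeno-GFP (adjusted p = 0.522). Its interaction was 0.90, opposite in sign to that of Gadd45g, and did not pass (adjusted p = 0.538).

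Map3k4 itself, the kinase that Gadd45 proteins open, averaged 7.71 ± 0.02 in Adeno-Cre fasted and 7.49 ± 0.09 in Adeno-GFP fasted livers (SD, n = 3; log2 0.23, limma adjusted p = 0.149). Its fasting change was -0.08 after Adeno-Cre (adjusted p = 0.651) and -0.30 after Adeno-GFP (adjusted p = 0.0496, ended without any 1 of 11 arrays). Averaged over injections, 4 of the 21 rose with fasting and 1 fell, where 4.02% of all genes were called higher and 4.32% lower. Map3k5, the stress kinase ASK1, rose by 0.49 (adjusted p = 0.00114), Map2k6 by 0.68, Mapkapk2, a kinase that p38 activates, by 0.26 and Mapk13 by 0.36 (adjusted p = 0.0373, ended without any 1 of 8 arrays). Map3k4, with a change of -0.19, was the 1 that fell (adjusted p = 0.0429, ended without any 1 of 10 arrays). The p38 and JNK genes Mapk14 and Mapk8 were at -0.08 and 0.02 with Adeno-Cre in fasted livers (adjusted p = 0.603 and 0.961).

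Genes of active DNA demethylation and excision repair gave 0 calls of 17 in each of the 7 comparisons by limma. Over all genes 0.00451% to 8.34% were called in either direction, so 0 of 17 says little about these genes. There were 2 to 4 at an unadjusted p under 0.05, and medians of -0.05 to 0.04. The smallest adjusted p in a single diet or injection was that of Mbd4, a DNA glycosylase, for fasting after Adeno-GFP (-0.45, adjusted p = 0.0721).

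**Figure D4:**
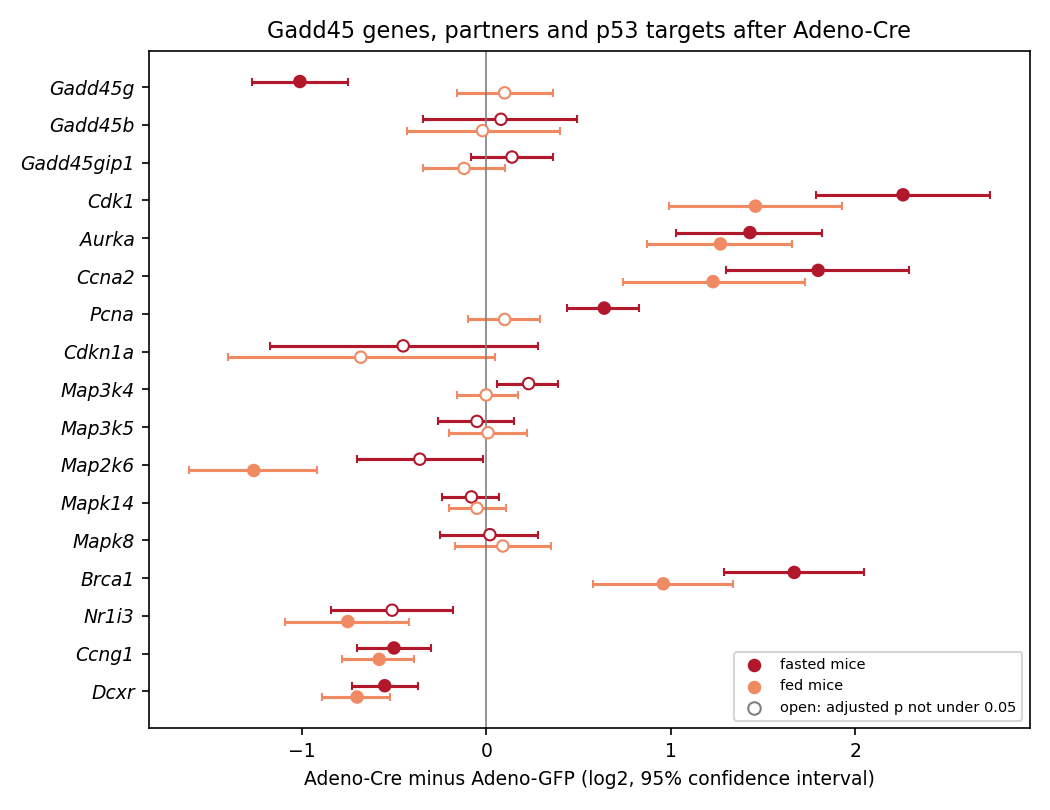
Adeno-Cre minus Adeno-GFP (log2, horizontal axis, with 95% confidence intervals from limma) in fasted and in fed livers. Shown are both Gadd45 genes, their partners and other cell cycle genes, kinases of the p38 and JNK cascade, reported regulators and p53 targets. Filled points passed an adjusted p of 0.05. Cdk1, Aurka and Ccna2 lie above 1 in both diets, Gadd45g lies below 0 in fasted livers only among the 2 diets, and Map2k6 is filled only in fed livers.

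Of 29 measured genes reported to regulate Gadd45 genes, 1 rose and 0 fell with Adeno-Cre in fasted livers. There 2.26% of all genes were called higher. In fed livers 1 rose and 1 fell, where 1.08% of all genes were called higher and 0.415% lower. Averaged over diets 1 rose and 1 fell, where 3.55% were called higher and 2.03% lower. With Adeno-Cre, Brca1, a DNA repair factor, rose in fasted livers by 1.67 (limma adjusted p = 0.000433). In fed livers Brca1 rose by 0.96 and Nr1i3, the receptor CAR, fell by 0.75 (adjusted p = 0.0221 and 0.0328), calls that ended without any 1 of 5 and of 6 arrays; averaged over diets both held without each array in turn (1.32 and -0.63, adjusted p = 8.53e-05 and 0.00429). List medians were -0.02 in fasted and -0.01 in fed livers, against -0.03 and -0.02 over all genes. Foxo1 and Foxo3, transcription factors active in fasting, were at 0.01 and -0.15 with Adeno-Cre in fasted livers (adjusted p = 0.966 and 0.632). Egr1, Stat3, Smad3 and Ppara lay between -0.26 and -0.13 there and did not pass (adjusted p = 0.418 to 0.642), and Atf4, Rela, Tgfb1 and Myc lay between -0.18 and 0.21 (adjusted p = 0.55 to 0.941). Averaged over injections, Nr1i3 (0.41) and Crtc2, a coactivator of the glucagon response, rose with fasting (0.24), and Tgfbr1 (-0.20) and Nr3c1, the glucocorticoid receptor, fell (-0.22). Each had a limma adjusted p between 0.0352 and 0.0496, in a call that ended without any 1 of 8 to 10 arrays. In that comparison 4.02% of all genes were called higher and 4.32% lower.

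Other genes named for growth arrest and DNA damage were read in the same way. Of 15 measured, 1 fell and 0 rose with Adeno-Cre in fasted livers, where 0.482% of all genes were called lower (median -0.15, against -0.03 over all genes), and 5 had an unadjusted p under 0.05. That gene was Sesn1, also a p53 target, at -0.37 (limma adjusted p = 0.0439), a call that ended without any 1 of 11 arrays. Ddit3, the stress factor CHOP, was at 0.33 (adjusted p = 0.353) and Ppp1r15a, known as GADD34, at -0.15 (adjusted p = 0.572). Ddit4, an inhibitor of mTOR signalling, came nearest among them in the interaction (-0.73, adjusted p = 0.546): its fasting change was -0.28 after Adeno-Cre and 0.45 after Adeno-GFP (adjusted p = 0.394 and 0.139). By group mean Sesn1, Sesn2, Ddit4 and Btg2, an antiproliferative gene, were highest in Adeno-GFP fasted livers, as Gadd45g was. Others of the list were not. Ddit3 was lowest there (7.58), and Ppp1r15a and Sesn3 were highest in Adeno-GFP fed livers (6.88 and 8.62). This order was noted with the values known, and no count over all 15 genes is given. Btg2 averaged 7.54 ± 0.60 in Adeno-Cre fasted and 8.29 ± 0.31 in Adeno-GFP fasted livers (SD, n = 3; log2 -0.76, limma adjusted p = 0.149).

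Of 30 measured p53 targets, 3 fell and 0 rose with Adeno-Cre in each diet, where 0.482% of all genes were called lower in fasted and 0.415% in fed livers. Medians were -0.15 and -0.13, with 9 and 10 genes at an unadjusted p under 0.05. Without Adeno-GFP fed replicate 1 the count in fed livers was 1. Dcxr, a carbonyl reductase, fell in both (-0.55 and -0.70, limma adjusted p = 0.00352 and 0.00592). Dcxr also rose with fasting, by 0.67 after Adeno-Cre and 0.52 after Adeno-GFP. Beside them, Gadd45g was at -1.01 in fasted and 0.10 in fed livers; the difference between these genes was not tested. For the 30 targets 0 passed the interaction by limma, which 1 of all 22180 genes (0.00451%) did. An unadjusted p under 0.05 was found for 4 of the 30, and for 1676 of all genes.

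Markers of liver cell types were read beside the fall of Gadd45g. In fasted livers Adeno-Cre had 2.26% of all genes called higher and 0.482% lower. Averaged over diets the shares were 3.55% higher and 2.03% lower. With Adeno-Cre in fasted livers 0 of 10 hepatocyte markers were called by limma, with 4 at an unadjusted p under 0.05 and a median of -0.11. Their mean log2 level did not overlap between the viruses there, at 11.57 in all 3 Adeno-Cre fasted arrays and 11.64 to 11.73 in Adeno-GFP fasted arrays, and it was 11.39 to 11.57 in Adeno-Cre fed and 11.53 to 11.61 in Adeno-GFP fed arrays. Averaged over diets Cyp2f2, a periportal cytochrome P450, fell by 0.28 (limma adjusted p = 0.00846) and Glul, glutamine synthetase, by 0.21 (adjusted p = 0.0386, ended without any 1 of 10 arrays). With Adeno-Cre in fasted livers 1 of 16 Kupffer cell and macrophage markers fell and 0 rose (median -0.30), and that gene was Lyz2, macrophage lysozyme (-0.71, limma adjusted p = 0.027, ended without any 1 of the 3 Adeno-GFP fasted arrays). Averaged over diets 1 of them rose and 1 fell, and both calls held without each array in turn. Ly6c2 rose by 0.73 (limma adjusted p = 0.00593) and Lyz2 fell by 0.54 (adjusted p = 0.0111). Ly6c2 stood low, with group means of 4.61 to 5.85. The mean log2 level of the 16 markers ran from 7.29 to 7.68 in Adeno-Cre fasted, 7.61 to 8.04 in Adeno-GFP fasted, 7.54 to 7.92 in Adeno-Cre fed and 7.74 to 7.82 in Adeno-GFP fed livers, and the ranges of neighbouring groups overlapped. Stellate cell markers had a median of -0.24 with 0 of 12 called by limma but 6 at an unadjusted p under 0.05. Averaged over diets 4 of them fell, Reln, Rgs5, Ecm1 and Hand2, and 1 to 3 without 1 array. Their mean level ran from 7.96 to 8.15, 8.24 to 8.33, 8.18 to 8.30 and 8.44 to 8.49 in the same order of groups, so that in each diet the Adeno-Cre arrays lay below the Adeno-GFP arrays. In fasted livers cholangiocyte markers gave 0 calls of 6 by limma (median -0.25, 2 at an unadjusted p under 0.05), endothelial markers 0 of 12 (median -0.07, 0 at an unadjusted p under 0.05), and lymphocyte and neutrophil markers 1 rise of 15, of Gzma (0.65, adjusted p = 0.0295, ended without any 1 of the 6 fasted arrays). Averaged over diets Krt7, of the cholangiocyte list, fell by 0.37 (limma adjusted p = 0.0356, ended without any 1 of 9 arrays). Gzma rose by 0.68 (adjusted p = 0.00155), a call that held without each array in turn. Without detection calls, low marker levels, such as group means down to 4.03 among lymphocyte and neutrophil markers, are not shown to lie above background. Whether cell numbers had a part in the fall of Gadd45g was not tested.

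The genes most like Gadd45g over the 12 arrays shared its peak in Adeno-GFP fasted livers. Among 10376 genes above the median level, predicted gene models left out, the highest Pearson correlations were those of Fbxo31 (0.939), Mir344d-2 (0.934), Trim43c (0.913), Aass (0.907) and Ei24 (0.902). With group means removed the values were 0.277, 0.545, 0.429, 0.158 and 0.340, and without the 2 arrays farthest from the Gadd45g median 0.914, 0.843, 0.810, 0.825 and 0.896. Spearman correlations ran from 0.804 to 0.916. These are descriptions over arrays that fall into 4 groups.

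Fbxo31, a subunit of a ubiquitin ligase, averaged 7.98 ± 0.09 in Adeno-Cre fasted, 8.42 ± 0.05 in Adeno-GFP fasted, 7.62 ± 0.19 in Adeno-Cre fed and 7.60 ± 0.14 in Adeno-GFP fed livers (SD, n = 3). Its Adeno-Cre fall in fasted livers (log2 -0.45, limma adjusted p = 0.044) ended without any 1 of 8 arrays, and its rise with fasting after Adeno-GFP (0.83, adjusted p = 0.00176) held without each. Aass, the first enzyme of lysine breakdown, averaged 11.88 ± 0.08 in Adeno-Cre fasted and 12.42 ± 0.02 in Adeno-GFP fasted livers, and fell by 0.53 with Adeno-Cre there (adjusted p = 0.00374). Aass rose with fasting after both viruses, by 0.49 after Adeno-Cre (adjusted p = 0.0106; 0.0535 without Adeno-Cre fasted replicate 1) and by 0.72 after Adeno-GFP (adjusted p = 0.000964). Ei24, which encodes a membrane protein of the endoplasmic reticulum and is itself a p53 target, was at -0.21 with Adeno-Cre in fasted livers (adjusted p = 0.171). The probe sets annotated to Mir344d-2 and Trim43c rose with fasting after Adeno-GFP by 2.48 and 2.66 (adjusted p = 0.00218 and 0.0018), and their Adeno-Cre changes in fasted livers of -1.28 and -1.26 did not pass (adjusted p = 0.0613 and 0.0764).

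**Figure D5:**
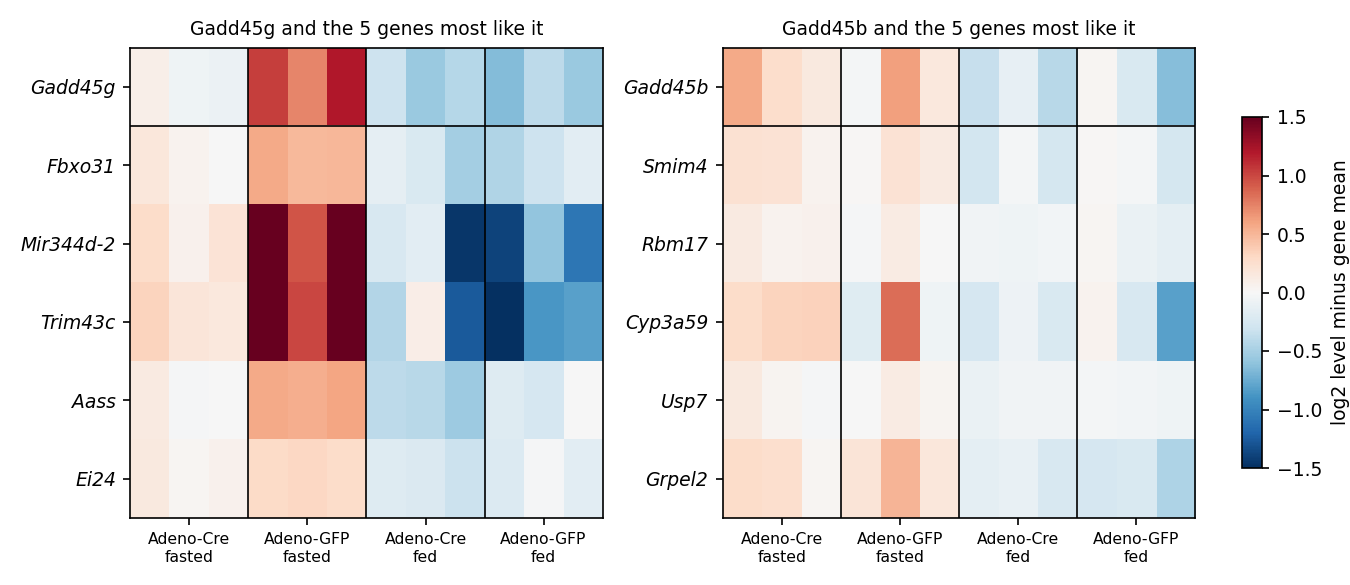
Log2 level minus the gene's own mean (colour, clipped at 1.5) in 12 arrays, 3 columns per group, for Gadd45g (left) and Gadd45b (right) in the top row and the 5 genes with the highest Pearson correlation to each below. The Gadd45g rows are darkest red in the 3 Adeno-GFP fasted arrays. In each of the Gadd45b rows most of the fasted arrays lie above the gene's mean, to differing degrees.

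Different genes led the list for Gadd45b. They were Smim4 (0.938), Rbm17 (0.934), a splicing factor, Cyp3a59 (0.907), a cytochrome P450, Usp7 (0.902), a deubiquitinase that acts on Mdm2 and p53, and Grpel2 (0.900), a cochaperone of mitochondrial import, among 10377 genes. With group means removed they kept values of 0.762 to 0.875, so the likeness to Gadd45b lay partly in differences between arrays of a group. The 5 genes were picked for their correlation over these same arrays, differences within groups included. These values are therefore no independent support for a likeness to Gadd45b. Without the 2 arrays farthest from its median the values were 0.798 to 0.932, and Spearman correlations ran from 0.853 to 0.958. Cyp3a59 averaged 9.84 ± 0.04 in Adeno-Cre fasted and 9.33 ± 0.10 in Adeno-Cre fed livers (SD, n = 3), against 9.72 ± 0.56 in Adeno-GFP fasted and 9.19 ± 0.45 in Adeno-GFP fed livers. With Adeno-Cre none of the 5 passed in either diet by limma (adjusted p = 0.66 to 0.976). Grpel2 rose with fasting after Adeno-GFP by 0.60 (adjusted p = 0.0128).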

How the data were processed

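The submitters' processing notes name RMA, and the authors deposited its log2 values for each probe set. RMA subtracts background, gives all arrays one distribution and summarises probes on the log2 scale. The sources used here do not give its software, probe annotation or genome build. Total RNA (200 ng, integrity number above 7) was labelled with biotin, per the labels' protocols. Of 41345 probe sets, the platform annotation names exactly 1 gene for 23521 and several for 1814, and lists no gene for 16010 or leaves them out; 23328 of the first were found in RefSeq by gene identifier.

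The fit took all 12 arrays, with 1 mean for each group (limma 3.58.1 in R 4.3.3, eBayes without trend or robust options). Benjamini-Hochberg adjustment ran over 22180 genes in each of 7 comparisons (threshold 0.05), and the script was tested on simulated data. A named gene was a member, one of a fixed set, one of the 4 with the smallest adjusted p of a list (where none passed, the 2 with the smallest p), or among the 5 most correlated with a member. Ccnb1 and Nfkb1, of the fixed set, have no probe set naming them alone; markers of other cells that were called were named after their values were seen, as was Slc44a3. The members and gene lists were chosen with earlier results of these data known. Replicate numbers do not pair the mice in the labels. Plots were drawn with Python 3.11.15 and matplotlib 3.10.9.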

Additional observations from a re-analysis of the deposited data

How the results depend on the processing

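Gadd45g kept its direction and its side of the threshold under each alternative in the 7 comparisons, with 1 exception: fasting after Adeno-Cre (log2 0.41) passed with genes under the median level left out. Gadd45b lies under that median and has no value there. Its rise with fasting averaged over injections missed the threshold with all probe sets tested (0.57) and ran from 0.48 to 0.65 without 1 array. Its fasting differences after each virus kept their sign and stayed uncalled (0.50 to 0.71 after Adeno-Cre and 0.34 to 0.68 after Adeno-GFP without 1 array). Its Adeno-Cre differences and its interaction were near 0 and changed sign without single arrays: -0.06 to 0.26 for Adeno-Cre in fasted mice, -0.19 to 0.14 in fed mice, -0.06 to 0.12 averaged and -0.06 to 0.28 for the interaction.

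The counts of called genes moved more than the members did. For Adeno-Cre in fasted mice 609 genes became 940 with genes under the median level left out, 939 with a trended and robust prior and 320 with only the compared groups fitted (355 to 800 without 1 array). For Adeno-Cre in fed mice 331 became 606, 539 and 145 in the same order and 91 with all probe sets tested (31 to 362). For fasting after Adeno-Cre 592 became 1049, 935, 212 and 332 (207 to 713), and for fasting after Adeno-GFP 682 became 1160, 1038, 394 and 388 (275 to 720). The averaged Adeno-Cre count of 1239 was 824 to 1353 without 1 array. The single interaction call became 0 after a second quantile normalization, with the replicate block or with all probe sets tested, and 0 to 1 without 1 array. Some of these alternatives used fewer genes or fewer arrays, and what moved the counts was not tested.

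The replicate number as a block ended no call of Gadd45b or Gadd45g (for Adeno-Cre in fasted mice, Gadd45g -1.01, limma adjusted p = 0.00279). Same-numbered arrays of different groups had deviations that correlated at -0.091 to 0.147, over 0.1 in 2 of 18 pairs. Differently numbered arrays correlated at -0.179 to 0.129. Such correlations cannot exclude that same-numbered mice shared a day or a batch. Of 132 calls of other named genes and markers, 72 held without each array in turn. The number of arrays and the lack of detection calls near background limit precision.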

Other observations

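The interaction's smallest unadjusted p-values around that of Gadd45g belonged to genes with other roles, chosen here by that rank. Slc44a3, a choline transporter-like protein, had a fasting change after Adeno-Cre minus that after Adeno-GFP of 1.07 (limma adjusted p = 0.0481). Ccl12, a monocyte chemokine, ranked 4th (-1.29), Serpina3i, a protease inhibitor, 5th (0.77) and Gstm3, a glutathione transferase, 6th (1.22), each with an adjusted p of 0.238. Among the 10 smallest, 7 were positive and 3, those of Gadd45g, Ccl12 and Kcnk15, were negative.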
